A study of Mus musculus with 14 samples.

Results

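The genes described here are 39 enzymes and regulators of antioxidant and redox defence, taken by symbol from the 37310 genes counted by RNA sequencing in β-cells and whole islets of the mouse pancreas; all 39 had a row in each of the 3 deposited count tables. They comprise 6 glutathione peroxidases, 4 catalase and superoxide dismutase genes, 7 peroxiredoxin and sulfiredoxin genes, 7 thioredoxin and glutaredoxin genes, 4 genes of glutathione synthesis and reduction, 2 of NADPH supply, 3 quinone reductase and haem oxygenase genes, 3 regulators and 3 glutathione S-transferases. The first table holds wild-type β-cells from pups at postnatal day 6 (neonatal, n = 3 libraries) and from mice at day 45 (adult, n = 3). The second holds whole islets from mice 8 weeks old, 2 libraries labelled TSC1 KO, described by the submitters as a knockout in β-cells, and 2 labelled control, all with the prefix RC. The third holds whole islets from mice 4 weeks old, 2 libraries labelled Db and 2 labelled control, all prefixed BKS; the labels give C57BL/6 as the strain throughout. TSC1 is a subunit of the complex that restrains the growth kinase mTORC1, and db is the usual name of a mutation in the leptin receptor gene Lepr that leads to obesity and diabetes. The meaning of the prefixes, the Cre line, the allele behind Db and the way the β-cells were obtained are not named by the sources used here.

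Cells remove superoxide with superoxide dismutases, which make hydrogen peroxide, and remove peroxide with catalase, glutathione peroxidases and peroxiredoxins. Glutathione and thioredoxin give the electrons for this and are themselves recharged with NADPH. β-cells are known for low catalase and glutathione peroxidase activity and rely much on the peroxiredoxin and thioredoxin arm. Many of these genes are targets of NRF2, the transcription factor encoded by Nfe2l2, which KEAP1 holds for degradation until oxidants modify it and which BACH1 opposes at the same DNA motif, the antioxidant response element.

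The core of that element, TGACNNNGC, was searched for on both strands in the 250 bases before the listed starts of each gene. A window was available for 32 of the 39 genes in the RefSeq promoter table of build GRCm38.p6, and 6 of the 32 (18.8%) held the motif: Sod1, Prdx1, Txnrd1, Gclm, G6pdx and Nfe2l2. Of 27025 genes with a window, 3112 (11.5%) held it. Sod3, Prdx6, Gclc, Gsr, Nnt, Hmox1 and Gsta4 had no window. A match of these letters is a description and not a measured binding site. The sequences of 4 of these genes are shown because each of them passed a test in at least 1 comparison below, and they let a reader compare where the motif lies. They read 5′ to 3′ along the gene and end at the base before the start, with the motif in capitals, at chr2:75704664-75704913 on the minus strand for Nfe2l2 and on the plus strand at chr10:82858956-82859205 for Txnrd1, chr4:116685349-116685598 for Prdx1 and chr3:122245307-122245556 for Gclm.
Nfe2l2: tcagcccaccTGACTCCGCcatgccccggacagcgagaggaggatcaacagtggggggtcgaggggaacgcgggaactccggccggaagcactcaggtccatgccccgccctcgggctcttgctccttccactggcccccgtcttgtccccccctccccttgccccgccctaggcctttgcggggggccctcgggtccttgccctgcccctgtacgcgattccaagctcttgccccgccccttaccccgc
Txnrd1: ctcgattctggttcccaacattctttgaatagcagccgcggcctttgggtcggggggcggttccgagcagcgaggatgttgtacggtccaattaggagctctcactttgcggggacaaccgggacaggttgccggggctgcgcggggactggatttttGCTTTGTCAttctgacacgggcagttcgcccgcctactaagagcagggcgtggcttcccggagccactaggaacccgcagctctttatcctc
Prdx1: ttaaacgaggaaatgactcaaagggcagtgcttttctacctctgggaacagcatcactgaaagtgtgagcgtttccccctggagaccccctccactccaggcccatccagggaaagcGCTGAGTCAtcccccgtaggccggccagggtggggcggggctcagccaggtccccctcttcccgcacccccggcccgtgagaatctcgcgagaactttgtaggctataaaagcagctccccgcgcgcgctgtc
Gclm: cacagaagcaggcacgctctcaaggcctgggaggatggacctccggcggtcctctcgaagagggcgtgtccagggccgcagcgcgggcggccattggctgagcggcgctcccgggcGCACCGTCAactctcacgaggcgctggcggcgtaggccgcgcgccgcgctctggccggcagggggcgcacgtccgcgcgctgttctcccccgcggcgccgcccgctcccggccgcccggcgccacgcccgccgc
The motif begins 240 bases before the start in Nfe2l2, on the gene's own strand. In Txnrd1, Prdx1 and Gclm it reads on the opposite strand and its first base in the sequence printed, which for Txnrd1 is 1 of 3 listed starts, lies 92, 133 and 134 bases before the start. In TSC1 KO islets Nfe2l2 rose, and in Db islets Txnrd1 rose and Prdx1 and Gclm fell, the latter pair losing their calls once fold changes were corrected for GC content (log2 change -0.44 and 0.04).

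Gene rows summed to between 3507929 and 17688772 counts per library, with the lowest totals in the TSC1 KO libraries, and the 39 genes together took between 0.0793% and 0.296% of them. Levels are given as CPM, counts relative to the library total after TMM scaling to the bulk of genes, done separately in each table. Differences were tested on the counts with edgeR's quasi-likelihood F test over all genes of a table, with Benjamini-Hochberg adjustment, and a gene is said to rise or fall where its adjusted p is under 0.05. The labels do not say if each library had its own mice. The p-values rest on the spread between libraries, which may be technical. In the islet tables, with 2 libraries a group, the groups often do not overlap for genes that were not called. A lack of overlap is therefore given as a description and not as support for a call. The summed CPM of 10 β-cell markers was between 24400 and 90900 in the β-cell libraries. In the same libraries markers of α-, δ- and PP-cells summed to 425 to 2340 CPM (2 of 8 lower in adults), duct markers to 464 to 713 (3 of 9 lower), gastrointestinal epithelial markers to 101 to 225, mesenchymal to 8.27 to 198, immune to 16.8 to 84.6, acinar to 9.89 to 71.9 (1 of 11 lower), Schwann and neural to 9.35 to 61.2 (1 of 5 higher), endothelial to 3.71 to 26.2 and erythroid to at most 2.02 CPM. Tsc1 (ENSMUSG00000026812) stood at 25.1 and 54.1 CPM in RC control islets and at 31.0 and 34.4 in TSC1 KO islets. The groups overlap, and the difference did not pass the test (log2 change -0.28 ± 0.38 SE, adjusted p = 0.638 in edgeR). A gene-level count over whole islets cannot show a deletion of some exons in 1 cell type, so it does not check the TSC1 KO label. Lepr stood at 1.18 and 0.257 CPM in BKS control and at 0.0553 and 0.194 CPM in Db islets, too low to test.

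Levels between genes are compared per kilobase of transcript (CPM per kb). Gpx3, the secreted glutathione peroxidase, had the highest mean of the 39 genes in both β-cell groups, in RC control and in TSC1 KO islets. Sod1, the cytosolic copper-zinc superoxide dismutase, had the highest in BKS control and Db islets. This order depends on the transcript lengths used, 641 bases for Sod1 and 1594 for Gpx3. Before division by length, Gpx3 had the higher mean CPM in BKS control (120 against 115) and in Db islets (177 against 123). In neonatal β-cells Gpx3 was at 404 ± 179 and Sod1 at 232 ± 88.3 CPM per kb (SD, n = 3), and their ranges overlap. In adult β-cells Gpx3 was at 440 ± 126 and Sod1 at 292 ± 49.6 (SD, n = 3), with no overlap. RC control islets held Gpx3 at 374 ± 39.6 and Sod1 at 196 ± 39.6 CPM per kb (SD, n = 2), again apart, while in TSC1 KO islets the same genes stood at 154 ± 31.8 and 142 ± 4.95 and overlapped. In BKS control islets Sod1 led with 180 ± 18.4 CPM per kb, above Gpx1, the cytosolic glutathione peroxidase, at 85.0 ± 12.7 and Gpx3 at 75.6 ± 13.2, which overlap each other. In Db islets Sod1 stood at 192 ± 21.9, Gpx3 at 111 ± 22.9 and the peroxiredoxin Prdx5 at 90.2 ± 4.10 CPM per kb, with no overlap between neighbours in that order. At the low end, Gpx8, a glutathione peroxidase of the endoplasmic reticulum, and Gsta4, a glutathione S-transferase for lipid aldehydes, had no count in any of the 6 β-cell libraries, where 3 counts, the limit that a count of 0 allows, equal between 0.183 and 0.24 CPM by library. Both had counts in every islet library. These levels come from tables scaled separately, and tissue, age and table cannot be told apart between them.

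**Figure D1:**
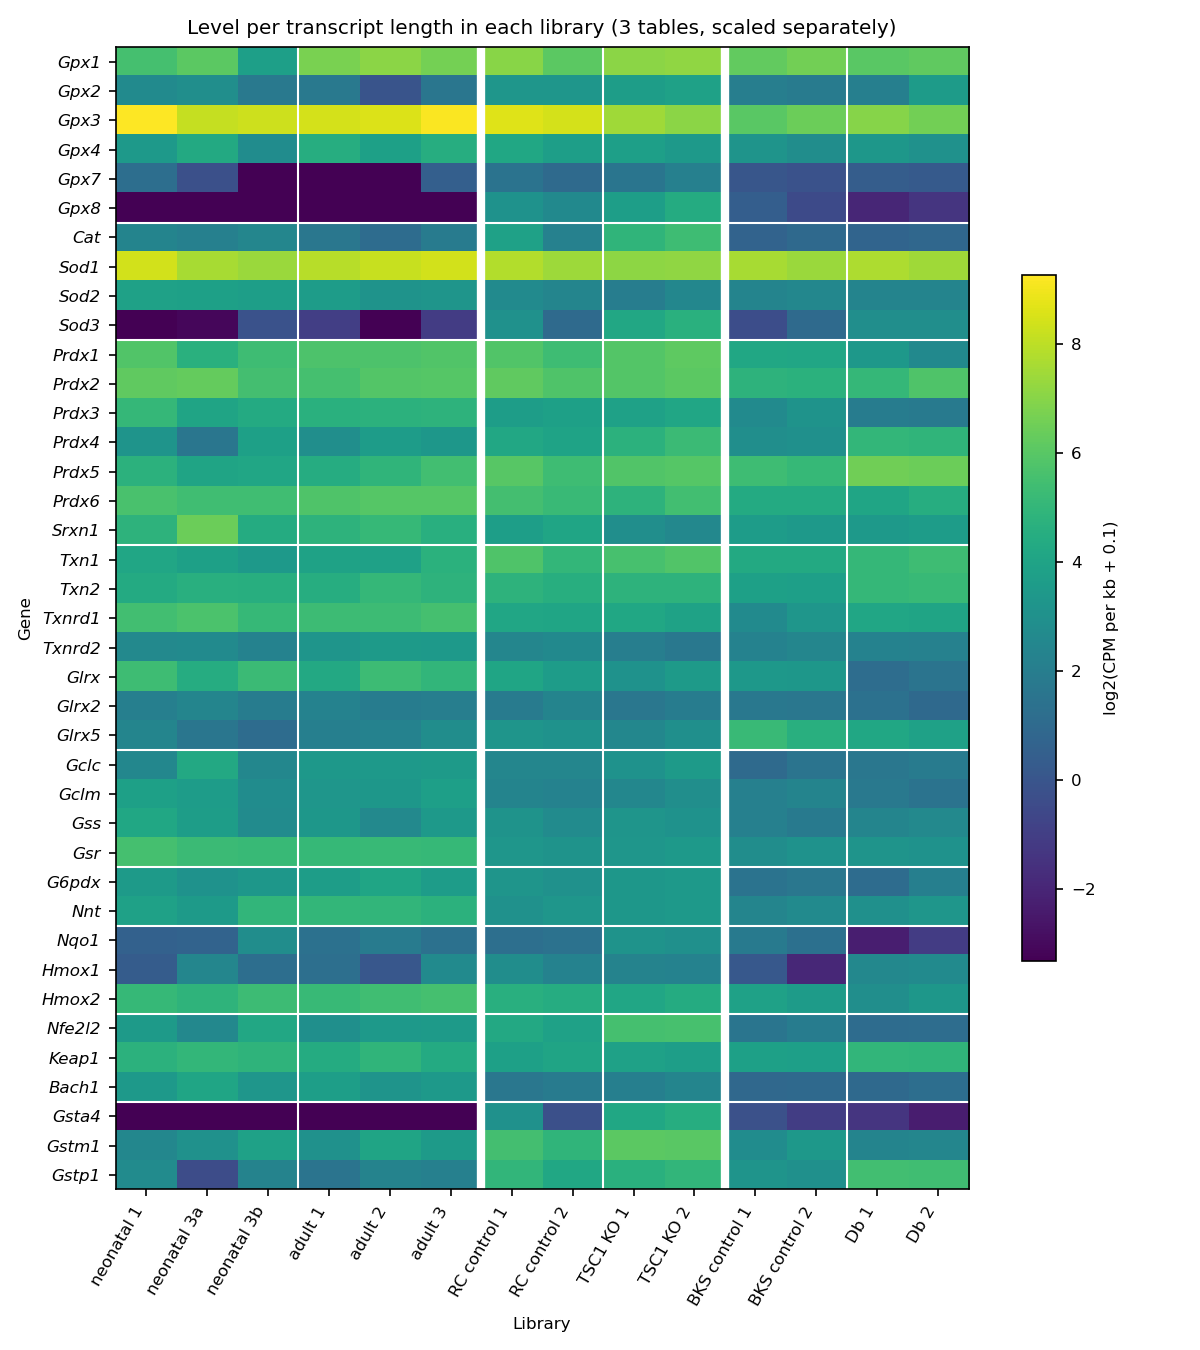
Level of each of the 39 genes in each of the 14 libraries, as log2 of CPM per kilobase of transcript plus 0.1 (colour), with genes in rows grouped by role and libraries in columns. Gpx3 and Sod1 form bright rows in all groups, Gpx8 and Gsta4 are at 0 in the 6 β-cell libraries, and the 3 blocks of columns were scaled separately.

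In β-cells between postnatal day 6 and day 45, none of the antioxidant and redox genes passed the test. Of the 37 with enough counts, 0 were called by edgeR, where 6.98% of the 14304 genes tested were called (3.38% higher and 3.60% lower), and 4 had an unadjusted p under 0.05. DESeq2 called 0 of the 37, where it called 11.4% of all genes. With limma-voom 1 was called, which was Gpx1, where 6.19% of all genes were called. The median log2 fold change, adult over neonatal, was 0.11 over these 37 genes and -0.03 over all genes tested. With each library's trend with transcript GC content removed, an alternative added after seeing the data, 0 were called by edgeR, where 5.31% of all genes were called, 2.80% higher and 2.50% lower. Gpx8 and Gsta4 were not tested.

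The lowest adjusted p belonged to Txnrd2, the mitochondrial thioredoxin reductase, which stood at 16.8, 18.4 and 13.6 CPM in neonatal and 26.4, 33.3 and 31.2 CPM in adult libraries. Every adult library lay above every neonatal one, with a log2 fold change of 0.90 ± 0.33 SE (edgeR adjusted p = 0.121, n = 3 each). Gpx1 was at 49.4, 72.9 and 14.7 CPM in neonatal and 113, 146 and 106 CPM in adult libraries. These groups do not overlap either, and the neonatal libraries differ widely among themselves (log2 change 1.41 ± 0.50 SE, adjusted p = 0.16 in edgeR). Without neonatal replicate 3b, the lowest of them, Gpx1 was called (log2 fold change 0.99, edgeR adjusted p = 0.0287). Sod2, the mitochondrial superoxide dismutase, was at 86.1, 81.2 and 77.8 CPM in neonatal and 70.6, 51.8 and 55 CPM in adult libraries (log2 change -0.47 ± 0.22 SE, adjusted p = 0.236 in edgeR). These genes are named after their values were seen, as having the low unadjusted p-values.

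Nnt encodes the mitochondrial transhydrogenase that makes NADPH from NADH, and the substrain C57BL/6J is known to carry a deletion within it. It was at 51.1, 39.3 and 107 CPM in neonatal and 112, 106 and 93.7 CPM in adult libraries. Neonatal replicate 3b lies within the adult range and the other two neonatal libraries lie below it (log2 change 0.66 ± 0.31 SE, adjusted p = 0.237 in edgeR). Without that library Nnt was called (log2 fold change 1.2, edgeR adjusted p = 0.00833). Of the regulators, Nfe2l2 stood at 28.8, 14.3 and 46.2 CPM in neonatal and 18.9, 27.2 and 28.2 CPM in adult libraries, and Bach1 at 63.4, 97.2 and 57.0 against 77.7, 52.0 and 64.0 CPM. Keap1 stood at 96.9, 117 and 103 CPM in neonatal and 76.4, 106 and 73.7 in adult libraries. All 3 regulators overlapped between the ages, with edgeR adjusted p-values of 0.782 for Nfe2l2, 0.791 for Bach1 and 0.455 for Keap1. A missed threshold does not show that the levels are alike, since the standard errors over the 37 genes ran from 0.18 for Prdx6 to 2.17 for Gpx7 on the log2 scale.

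**Figure D2:**
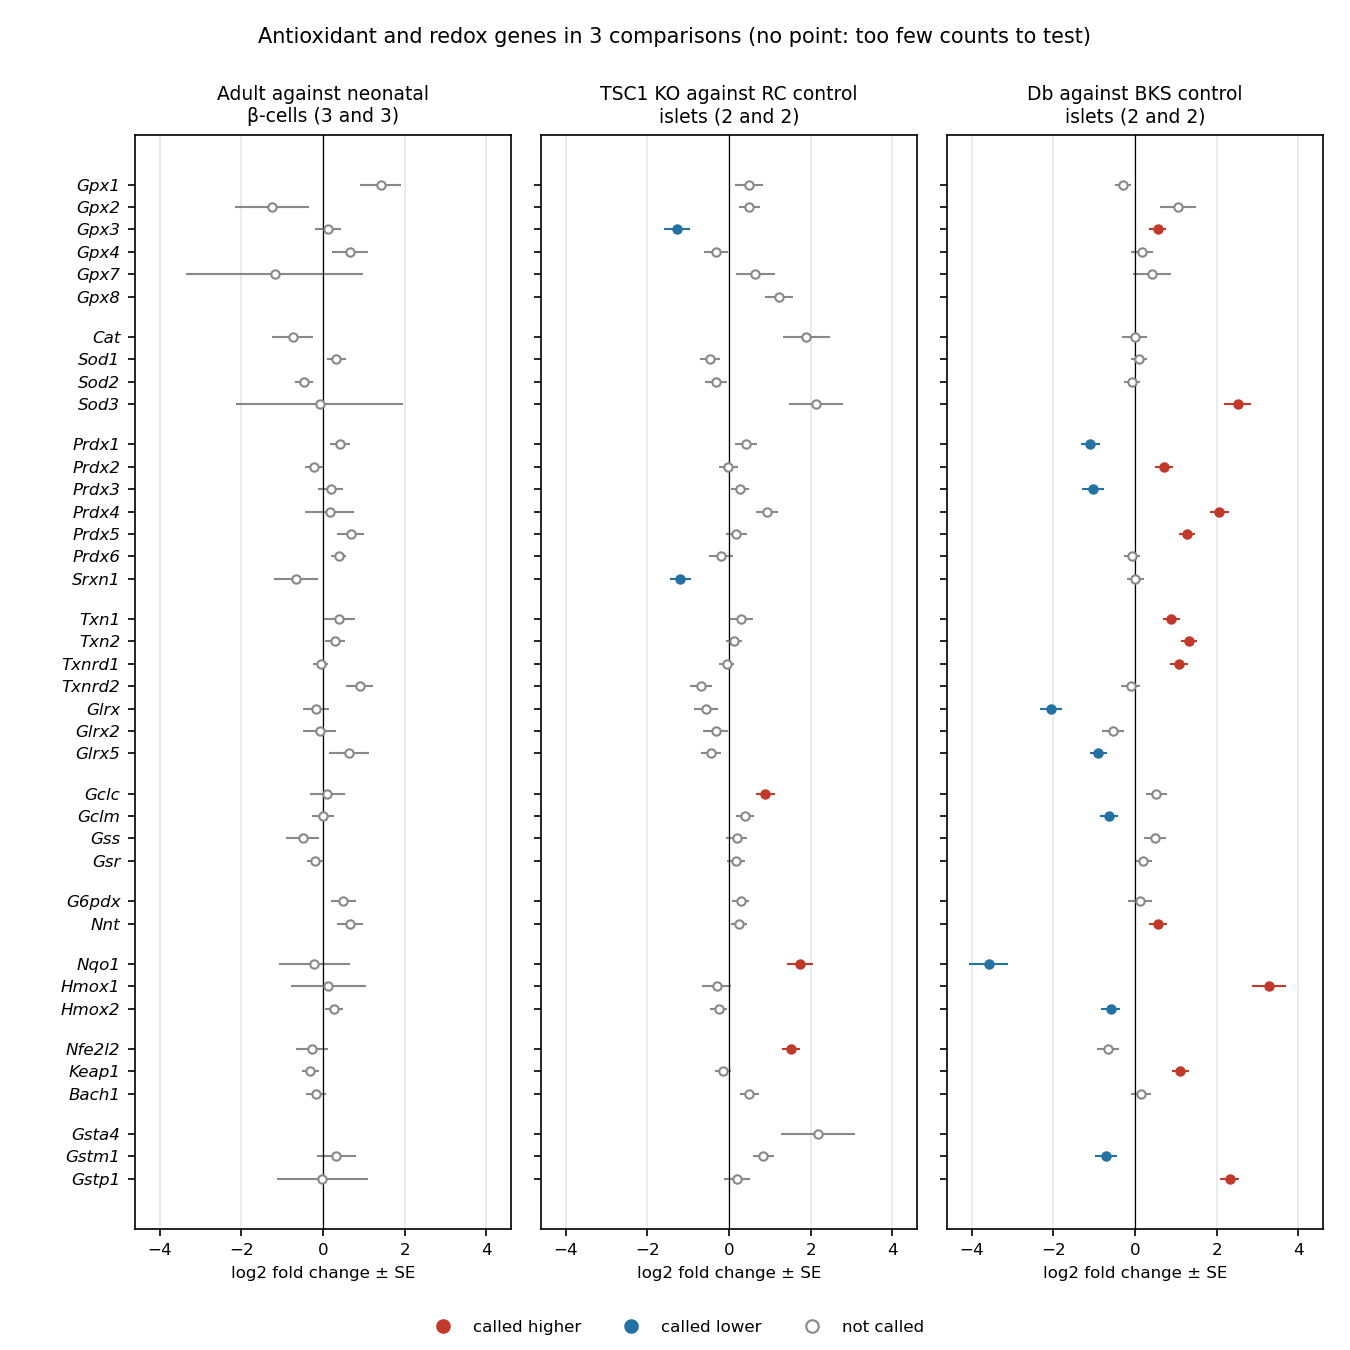
log2 fold change with its standard error for each gene (rows, grouped by role) in adult against neonatal β-cells, TSC1 KO against RC control islets and Db against BKS control islets; filled points passed an edgeR adjusted p of 0.05. No point is filled for the β-cells, 5 are filled for TSC1 KO and 20 for Db.

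In islets labelled TSC1 KO, Nfe2l2, Nqo1 and Gclc rose, and Gpx3 and Srxn1 fell. These 5 were 12.8% of the 39 genes, all of which were tested, against 18.6% of the 14515 genes tested in this table. The 3 that rose compare with 8.63% of all genes called higher and the 2 that fell with 10.0% called lower. The median log2 fold change, TSC1 KO over RC control, was 0.20 over the 39 genes and 0 over all genes. With the GC trend removed 2 rose and 2 fell, where 18.7% of all genes were called, 8.90% higher and 9.77% lower, and Gclc was the gene lost. With 2 libraries a group, no gene of the table passed the threshold once TSC1 KO replicate 1 or replicate 2 was left out (0 called, with 9 and 3 of the 39 genes at an unadjusted p under 0.05).

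Other features of the libraries moved with the knockout label. Genes encoded in the mitochondrial genome took 39.8% and 46.8% of counts in TSC1 KO against 12.4% and 9.05% in RC control islets. Of 10 β-cell markers 9 fell, and their summed level was 12900 to 13400 CPM against 235000 to 266000. Of 8 markers of α-, δ- and PP-cells 5 fell and 1 rose, with a sum of 2920 to 7520 against 27000 to 32900 CPM. Duct markers summed to 2360 to 3210 against 347 to 1050 CPM, with 3 of 9 called higher, endothelial markers to 3650 to 4900 against 2440 to 2770 CPM, with 3 of 8 higher and 1 lower, and mesenchymal markers to 1340 and 5040 against 956 to 1280 CPM, with no marker of 9 past the edgeR threshold. Acinar markers summed to 1370 to 3350 against 2210 to 3240 CPM and immune markers to 802 to 978 against 808 to 1130 CPM, with 1 of 10 immune markers lower. In whole islets, fewer cells of a type and less RNA per cell cannot be told apart, and the part of these shifts in the results below was not tested. Lepr, a gene outside the group, stood at 14.7 and 6.18 CPM in RC control and at 61.5 and 82.3 CPM in TSC1 KO islets, with no overlap (log2 change 2.78 ± 0.43 SE, adjusted p = 0.0177 in edgeR).

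Among the regulators, Nfe2l2 (ENSMUSG00000015839) stood at 46.9 and 36.2 CPM in RC control and at 116 and 120 CPM in TSC1 KO islets. The groups are far apart and the knockout libraries lie close together. Nfe2l2 rose 2.84-fold, from 41.6 ± 7.59 to 118 ± 2.83 CPM (SD, n = 2 each; log2 change 1.51 ± 0.22 SE, adjusted p = 0.0147 in edgeR). Without TSC1 KO replicate 1 or 2 its log2 fold change was 1.52 or 1.48, with edgeR adjusted p-values of 0.107 and 0.156. Keap1 was at 51.2 and 59.1 against 52.4 and 47.5 CPM, which overlap (edgeR adjusted p = 0.641), and Bach1 at 17.7 and 21.3 against 24.7 and 30.8 CPM, which do not (log2 change 0.50 ± 0.23 SE, adjusted p = 0.177 in edgeR).

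Nqo1 (ENSMUSG00000003849), the NADPH quinone reductase, stood at 3.63 and 3.97 CPM in RC control and 13.5 and 12 CPM in TSC1 KO islets. These levels came from 23 and 27 and from 58 and 36 counts. The pairs lie close within each group and apart between them. Nqo1 rose 3.35-fold, from 3.80 ± 0.24 to 12.8 ± 1.04 CPM (SD, n = 2 each; log2 change 1.74 ± 0.32 SE, adjusted p = 0.022 in edgeR). Leaving out TSC1 KO replicate 1 or 2 gave edgeR adjusted p-values of 0.146 and 0.165. Hmox1, the inducible haem oxygenase, was at 11.1 and 7.21 CPM against 7.46 and 7.36 CPM and overlapped (edgeR adjusted p = 0.585). Hmox2, the constitutive form, was at 41.9 and 37.8 against 29.8 and 37.1 CPM (edgeR adjusted p = 0.426).

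In glutathione synthesis, Gclc (ENSMUSG00000032350), the catalytic subunit of glutamate-cysteine ligase, stood at 18.5 and 18.2 CPM in RC control and at 29.1 and 39.5 CPM in TSC1 KO islets. Both knockout libraries are higher and they differ from each other. Gclc rose 1.86-fold (log2 change 0.89 ± 0.24 SE, adjusted p = 0.0483 in edgeR), just under the threshold, and the call was lost under 9 of 12 alternatives, among them leaving out any of the 4 libraries (edgeR adjusted p = 0.0532, 0.0716, 0.134 and 0.298). Gclm, the modifier subunit, Gss, glutathione synthetase, and Gsr, glutathione reductase, had log2 fold changes of 0.39 ± 0.22, 0.19 ± 0.26 and 0.17 ± 0.21 (SE, edgeR adjusted p = 0.261, 0.632 and 0.595). For NADPH supply, Nnt stood at 28.6 and 33.5 CPM in RC control and 35.0 and 38.8 CPM in TSC1 KO islets (log2 change 0.24 ± 0.20 SE, adjusted p = 0.429 in edgeR). Its direction turned to -0.01 with scaling by library size alone. G6pdx, the entry enzyme of the pentose phosphate pathway, was at 0.29 ± 0.21 on the log2 fold scale (SE, edgeR adjusted p = 0.374).

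Among the peroxide enzymes, Gpx3 (ENSMUSG00000018339) stood at 640 and 551 CPM in RC control and 282 and 211 CPM in TSC1 KO islets. The groups do not overlap. Gpx3 fell 2.42-fold, from 596 ± 63.1 to 246 ± 50.6 CPM (SD, n = 2 each; log2 change -1.27 ± 0.31 SE, adjusted p = 0.0413 in edgeR; 0.171 without TSC1 KO replicate 1 and 0.287 without replicate 2). Srxn1 (ENSMUSG00000032802), the sulfiredoxin that repairs over-oxidised peroxiredoxins, stood at 36.7 and 47.2 CPM in RC control and 20.5 and 16.1 CPM in TSC1 KO islets, also apart. It fell 2.28-fold, from 41.9 ± 7.48 to 18.3 ± 3.15 CPM (SD, n = 2 each; log2 change -1.19 ± 0.25 SE, adjusted p = 0.0275 in edgeR; 0.132 and 0.212 without each TSC1 KO library).

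The other members of these families did not pass the test in TSC1 KO islets. The log2 fold changes of the 5 other glutathione peroxidases ran from -0.31 for Gpx4, which reduces lipid peroxides, to 1.22 for Gpx8, and those of the 6 peroxiredoxins from -0.20 for Prdx6 to 0.93 for Prdx4, the form of the endoplasmic reticulum. The 7 thioredoxin and glutaredoxin genes ran from -0.68 for Txnrd2 to 0.29 for Txn1, the cytosolic thioredoxin. Cat, the catalase of peroxisomes, was at 37.9 and 11.9 CPM in RC control and 76.9 and 108 CPM in TSC1 KO islets, Sod3, the extracellular superoxide dismutase, at 29.9 and 7.21 against 69.9 and 92.6 CPM, and Gsta4 at 8.06 and 0.736 against 17.7 and 22.1 CPM. For these 3 genes the knockout libraries are higher and the control libraries differ by over 3 times among themselves (edgeR adjusted p = 0.0807, 0.0854 and 0.158). Without RC control replicate 1, the higher of the controls, 12 of the 39 genes were called, 10 of them higher, and those added were Gpx1, Gpx8, Cat, Sod3, Prdx4, Txn1, Gsta4 and Gstm1, where 27.2% of all genes were called. Without RC control replicate 2, 7 were called, with Cat (log2 change 1.28, adjusted p = 0.0213 in edgeR), Sod3 (1.44, 0.0128) and Gsta4 (1.29, 0.0387) added, where 18.9% of all genes were called. DESeq2 and limma-voom each added Cat and Sod3.

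**Figure D3:**
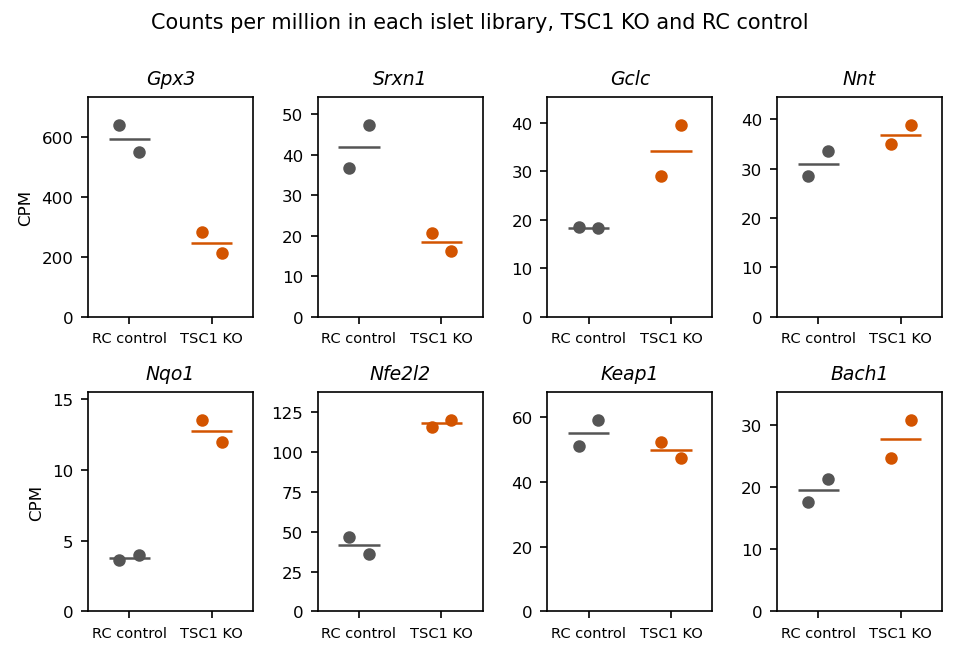
CPM in each library (points) and group mean (line) in RC control and TSC1 KO islets for the 5 genes that passed the test and for Nnt, Keap1 and Bach1. Nfe2l2 stands at 116 and 120 CPM in the knockout against 46.9 and 36.2 in controls, Gpx3 and Srxn1 lie lower in both knockout libraries, and Keap1 overlaps.

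In Db islets the antioxidant and redox genes moved in both directions. Of 37 tested, 12 rose and 8 fell, 54.1% in all, where 48.2% of the 14369 genes tested in this table were called, so the share is near that of all genes. The rises compare with 24.3% of all genes called higher and the falls with 23.9% called lower. The largest fold changes were the rises of Hmox1, Sod3, Gstp1 and Prdx4 and the falls of Nqo1 and Glrx. The median log2 fold change, Db over BKS control, was 0.14 over the 37 genes and -0.03 over all genes. With library size as the only scaling, which moved the median of all genes to 0.29, 14 genes rose and 3 fell, where 27.7% of all genes were called higher and 10.9% lower. Gpx8 and Gsta4 were too low to test, at 1.29 and 0.642 against 0.166 and 0.291 CPM and at 0.75 and 0.385 against 0.276 and 0.097 CPM. Where Gpx8 entered the test its log2 change was -1.95 with no low-count filter and -2.03 with insulin and mitochondrial genes left out. It was -2.4 without BKS control replicate 2, all on 3 to 12 counts a library. With the filter it entered through BKS control islets, where it is higher, and no difference is read from it.

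Fold changes in this table moved with the GC content of transcripts: the median over genes was -0.96 below 40% GC, -0.66 from 40% to 45%, -0.23 from 45% to 50%, 0.33 from 50% to 55%, 0.47 from 55% to 60% and -0.08 above 60%, while the 39 genes range from 42.0% to 60.2%. With the GC trend removed 13 genes rose and 7 fell, against 38.9% of all genes (20.1% higher, 18.8% lower). In that fit 16 of the 20 calls held with the same sign. Gpx3, Prdx1, Prdx3 and Gclm lost theirs, and Gpx1 (-0.75) and Txnrd2 (-0.59) fell and Sod2 (0.62) and Gclc (0.73) rose in that fit. The insulin genes took 48.3% and 45.5% of counts in Db against 61.0% and 70.0% in BKS control islets, and 7 of 10 β-cell markers fell and 1 rose. Acinar markers summed to 138 to 300 against 23.0 to 27.3 CPM, with 7 of 11 called higher and 1 lower, duct markers to 814 to 857 against 365 to 377 CPM, with 2 of 9 higher and 2 lower, and mesenchymal markers to 544 to 582 against 287 to 393 CPM, with 5 of 9 higher and 1 lower. Immune markers summed to 191 to 204 against 225 to 253 CPM, with 3 of 10 called lower, markers of α-, δ- and PP-cells to 7630 to 9970 against 3880 to 7600 CPM, with 1 of 8 higher and 1 lower, and endothelial markers to 601 to 607 against 826 to 886 CPM, with 5 of 8 lower and 1 higher. The part of these shifts in the results below was not tested.

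Hmox1 and Nqo1 showed the widest changes. Each passed the low-count filter through the group where it is high. That group was Db islets for Hmox1 and BKS control islets for Nqo1, so their calls are given as a description. Hmox1 (ENSMUSG00000005413) stood at 1.61 and 0.257 CPM in BKS control islets, from 15 and 2 counts, and at 9.07 and 10.1 CPM in Db islets, from 164 and 208 counts. The groups are far apart, on few control counts. Hmox1 rose 9.70-fold (log2 change 3.28 ± 0.42 SE, adjusted p = 9.64e-07 in edgeR), and the log2 change was 5.21 without BKS control replicate 1 and 2.6 without replicate 2. Nqo1 stood at 5.57 and 3.72 CPM in BKS control and at 0.166 and 0.582 CPM in Db islets, the latter from 3 and 12 counts. It fell 11.9-fold, from 4.65 ± 1.31 to 0.374 ± 0.294 CPM (SD, n = 2 each; log2 change -3.58 ± 0.48 SE, adjusted p = 8.73e-07 in edgeR), with a log2 change of -2.96 without Db replicate 1 and -4.71 without replicate 2. Hmox2 stood at 25.2 and 20.7 CPM in BKS control and 12.8 and 17.5 CPM in Db islets. It fell 1.51-fold (log2 change -0.60 ± 0.23 SE, adjusted p = 0.0308 in edgeR), a call lost without BKS control replicate 1 (edgeR adjusted p = 0.182) or Db replicate 1 (0.333), with no low-count filter, with library size only and in DESeq2.

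Of the regulators, Keap1 (ENSMUSG00000003308) stood at 51.7 and 49.8 CPM in BKS control and at 111 and 108 CPM in Db islets. Both pairs are tight and far apart. Keap1 rose 2.16-fold, from 50.8 ± 1.36 to 110 ± 2.49 CPM (SD, n = 2 each; log2 change 1.11 ± 0.20 SE, adjusted p = 4.75e-05 in edgeR), and 0.70 on the log2 scale with the GC trend removed (edgeR adjusted p = 0.00595). Nfe2l2 was at 7.07 and 9.5 CPM against 5.14 and 5.28 CPM. The Db libraries lie below both controls, without passing the threshold (log2 change -0.66 ± 0.28 SE, adjusted p = 0.0516 in edgeR), and without BKS control replicate 1 it was called lower (edgeR adjusted p = 0.028). Bach1 was at 10.7 and 11 against 10.8 and 13.1 CPM and overlapped (edgeR adjusted p = 0.668).

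Of the superoxide and peroxide enzymes, Sod3 (ENSMUSG00000072941) stood at 2.57 and 7.32 CPM in BKS control and at 27.6 and 27.5 CPM in Db islets. The Db libraries are nearly equal and above both controls, which differ. Sod3 rose 5.69-fold (log2 change 2.51 ± 0.33 SE, adjusted p = 1.05e-05 in edgeR), with a log2 change of 1.94 without BKS control replicate 1 and 3.45 without replicate 2. Gpx3 stood at 105 and 135 CPM in BKS control and 203 and 151 CPM in Db islets, apart by a small margin. It rose 1.47-fold (log2 change 0.56 ± 0.21 SE, adjusted p = 0.0306 in edgeR), and lost the call without BKS control replicate 1 (0.41 on the log2 scale, edgeR adjusted p = 0.0907), without Db replicate 1 (0.35, edgeR adjusted p = 0.364) and with the GC trend removed (0.07, edgeR adjusted p = 0.809). Sod1, Sod2 and Cat overlapped between the groups, with log2 fold changes of 0.10 ± 0.20, -0.07 ± 0.20 and -0.01 ± 0.31 (SE). Gpx1, Gpx2, Gpx4 and Gpx7 did not pass the test, with log2 fold changes from -0.29 for Gpx1 to 1.05 for Gpx2, a gastrointestinal form. Gpx2, at 4.39 and 3.85 against 4.53 and 12.5 CPM (adjusted p = 0.0655 in edgeR), was called higher under 6 of 12 alternatives, with library size only, with no filter, with the replicate block and without either BKS control library or Db replicate 1 (adjusted p between 0.000123 and 0.0206 in edgeR).

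The peroxiredoxins divided by gene. Prdx4 (ENSMUSG00000025289) stood at 7.18 and 7.70 CPM in BKS control and at 32.2 and 29.9 CPM in Db islets. Both pairs are tight, and Prdx4 rose 4.17-fold, from 7.44 ± 0.372 to 31 ± 1.6 CPM (SD, n = 2 each; log2 change 2.06 ± 0.23 SE, adjusted p = 5.51e-08 in edgeR). Prdx5, a form found in mitochondria and peroxisomes, stood at 51.0 and 43.6 CPM against 118 and 110 CPM. It rose 2.40-fold (log2 change 1.27 ± 0.20 SE, adjusted p = 1.03e-05 in edgeR). Prdx2, a cytosolic form, stood at 45.6 and 41.6 CPM in BKS control and 53.1 and 88.1 CPM in Db islets, and Db replicate 2 carries most of the difference. Prdx2 rose 1.62-fold (edgeR adjusted p = 0.0116), and without that library its log2 fold change was 0.30 (edgeR adjusted p = 0.438).

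Prdx1, the other abundant cytosolic form, stood at 40.7 and 39.9 CPM in BKS control and 24.1 and 13.9 CPM in Db islets. It fell 2.12-fold (log2 change -1.09 ± 0.23 SE, adjusted p = 0.000442 in edgeR). Prdx3, the mitochondrial form, stood at 9.42 and 12.8 CPM against 5.58 and 5.24 CPM and fell 2.05-fold (log2 change -1.03 ± 0.27 SE, adjusted p = 0.00239 in edgeR). For both, the groups do not overlap, and both calls were lost with the GC trend removed (log2 fold change -0.44, edgeR adjusted p = 0.0966 for Prdx1 and -0.61, edgeR adjusted p = 0.0533 for Prdx3); Prdx1 also lost its call without Db replicate 2 (edgeR adjusted p = 0.0535). Prdx6, the form with a single active cysteine, and Srxn1 overlapped, at -0.07 ± 0.20 and 0.01 ± 0.20 (log2 fold change, SE). Reads of Prdx2 and Prdx5 may include those of genes on the other strand, Junb and Rnaseh2a for Prdx2 and Trmt112 for Prdx5, since no source used here gives the strand setting of the counting.

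Of the thioredoxin and glutaredoxin genes, Txn1, Txn2 and Txnrd1 rose and Glrx and Glrx5 fell. Txn1 stood at 21.1 and 20.8 CPM in BKS control and 34.9 and 43.0 CPM in Db islets and rose 1.86-fold (log2 change 0.89 ± 0.21 SE, adjusted p = 0.00101 in edgeR). Txn2 (ENSMUSG00000005354), the mitochondrial thioredoxin, stood at 29.0 and 27.7 against 68.6 and 73.2 CPM and rose 2.5-fold (log2 change 1.32 ± 0.20 SE, adjusted p = 5.81e-06 in edgeR). Txnrd1, the cytosolic thioredoxin reductase, stood at 23.1 and 35.0 against 63.1 and 59.3 CPM and rose 2.11-fold (log2 change 1.08 ± 0.22 SE, adjusted p = 0.000177 in edgeR). In all 3 every Db library lies above every control. Txnrd2 was at 13.3 and 15.3 CPM against 13.4 and 12.9 CPM and overlapped (edgeR adjusted p = 0.711).

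Glrx (ENSMUSG00000021591), the cytosolic glutaredoxin, stood at 14.0 and 13.3 CPM in BKS control and at 2.87 and 3.68 CPM in Db islets. The pairs are tight and apart, and Glrx fell 4.16-fold, from 13.7 ± 0.481 to 3.28 ± 0.572 CPM (SD, n = 2 each; log2 change -2.06 ± 0.27 SE, adjusted p = 8.06e-07 in edgeR). Glrx5, the mitochondrial glutaredoxin of iron-sulfur cluster assembly, stood at 105 and 71.1 against 51.4 and 43.2 CPM. It fell 1.87-fold (log2 change -0.90 ± 0.21 SE, adjusted p = 0.001 in edgeR), and with library size as the only scaling its log2 fold change was -0.64 (edgeR adjusted p = 0.114). Glrx2 was at 11 and 10.9 CPM in BKS control and 8.62 and 6.50 CPM in Db islets, apart but short of the threshold (edgeR adjusted p = 0.0851).

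In glutathione synthesis, Gclm stood at 24.7 and 27.7 CPM in BKS control and 18.6 and 15 CPM in Db islets. It fell 1.56-fold (log2 change -0.64 ± 0.22 SE, adjusted p = 0.0165 in edgeR). This call was lost without BKS control replicate 2 (edgeR adjusted p = 0.0654) and without Db replicate 2 (0.227), and the change was 0.04 on the log2 scale with the GC trend removed; Gclm also overlaps the gene Gm6061 on its own strand. Gclc, Gss and Gsr had log2 fold changes of 0.52 ± 0.26, 0.49 ± 0.26 and 0.20 ± 0.21 (SE, edgeR adjusted p = 0.0981, 0.114 and 0.465). Nnt stood at 18.1 and 22.5 CPM in BKS control and 26.9 and 33.3 CPM in Db islets, with Db above control. It rose 1.49-fold (log2 change 0.57 ± 0.22 SE, adjusted p = 0.0306 in edgeR; 0.119 without BKS control replicate 1 and 0.267 without Db replicate 2). G6pdx was at 7.18 and 8.21 against 5.47 and 11.1 CPM and overlapped.

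Of the glutathione S-transferases, Gstp1 (ENSMUSG00000060803), the π-class enzyme, stood at 7.5 and 6.42 CPM in BKS control and 35.4 and 34.5 CPM in Db islets. It rose 5-fold, from 6.96 ± 0.763 to 35.0 ± 0.687 CPM (SD, n = 2 each; log2 change 2.32 ± 0.23 SE, adjusted p = 7.02e-09 in edgeR), the lowest adjusted p among the 37 genes. Gstm1, of the μ class, stood at 8.67 and 13.2 against 6.47 and 6.84 CPM and fell 1.64-fold (log2 change -0.71 ± 0.27 SE, adjusted p = 0.0302 in edgeR). Its call was lost without BKS control replicate 2 (edgeR adjusted p = 0.379), without Db replicate 1 (0.139), without Db replicate 2 (0.11), with no low-count filter, with library size only and in DESeq2. Both genes have close relatives in the genome, so some of their reads may belong to another copy. Over all 12 alternatives, 11 of the 20 calls held: Sod3, Prdx4, Prdx5, Txn1, Txn2, Txnrd1, Glrx, Keap1 and Gstp1, with Nqo1 and Hmox1. The calls of Nqo1 and Hmox1 remain a description, since each passed the filter through the group where it is high. The share of calls that held over all genes was not counted.

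**Figure D4:**
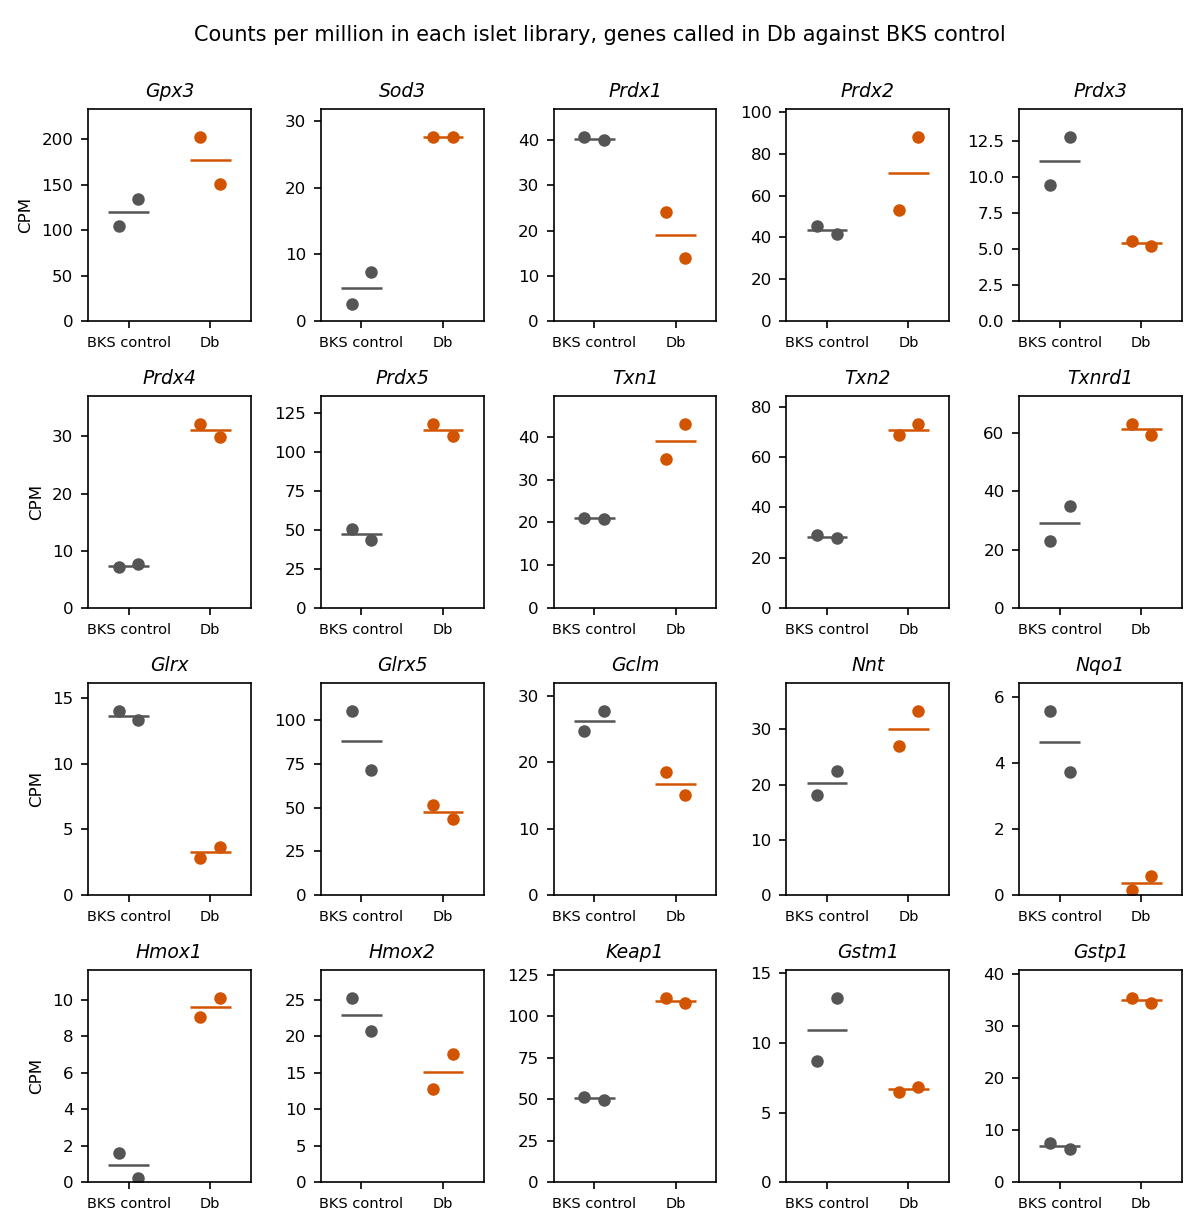
CPM in each library (points) and group mean (line) in BKS control and Db islets for the 20 genes that passed the test, each on its own scale from 0. Hmox1, Sod3, Prdx4 and Gstp1 lie far higher in both Db libraries and Nqo1 and Glrx far lower, while Prdx2 rests mostly on 1 Db library.

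The TSC1 KO and Db effects were compared in 1 edgeR fit over the 8 islet libraries, which share no sample between the comparisons. Of the 37 genes tested in both tables the effect differed for 16, with 7 higher and 9 lower in TSC1 KO relative to Db, where 31.8% of the 15702 genes tested differed, 13.2% higher and 18.6% lower. With library size as the only scaling 2 were higher and 11 lower, where 29.8% of all genes differed. That scaling moved the median of all genes to -0.25 in TSC1 KO and to 0.29 in Db islets. Gpx8 and Gsta4 passed the low-count filter of this fit through the TSC1 table, and no difference is read from them. Age, table and genotype differ together between these comparisons and cannot be told apart. The widest difference was that of Nqo1, which rose in TSC1 KO and fell in Db islets (difference of log2 fold changes 5.23 ± 0.66 SE, edgeR adjusted p = 0.000155). Nfe2l2 rose in TSC1 KO islets and was at -0.66 in Db islets (difference 2.08 ± 0.32 SE, edgeR adjusted p = 0.000572). Gpx3 fell in TSC1 KO and rose in Db islets (difference -1.92 ± 0.36 SE, edgeR adjusted p = 0.00193).

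The rises of Hmox1, Gstp1, Txn2, Txnrd1 and Keap1 in Db islets had no counterpart of that size in TSC1 KO islets. The differences, TSC1 KO minus Db, were -3.67 ± 0.66 for Hmox1, -2.21 ± 0.38 for Gstp1, -1.29 ± 0.28 for Txn2, -1.22 ± 0.32 for Txnrd1 and -1.34 ± 0.28 for Keap1 (SE, edgeR adjusted p between 0.00112 and 0.0129). Prdx4, Prdx5 and Srxn1 also differed downward (-1.22 ± 0.33, -1.17 ± 0.32 and -1.29 ± 0.31, edgeR adjusted p = 0.0147, 0.0151 and 0.00817). Gstm1, Prdx1, Glrx, Prdx3 and Gclm differed upward, by 1.46 ± 0.37, 1.41 ± 0.38, 1.41 ± 0.40, 1.22 ± 0.36 and 0.94 ± 0.31 (edgeR adjusted p between 0.0098 and 0.0378). Over all 15 alternatives, 7 of the 16 calls held, those of Gpx3, Txn2, Txnrd1, Nqo1, Hmox1, Nfe2l2 and Gstp1. For Nqo1 and Hmox1 the Db effect within this difference is the one given above as a description. The share of calls that held over all genes was not counted. With the GC trend removed 11 of the 37 genes differed, where 26.7% of all genes did, 11.5% higher and 15.1% lower, and Prdx1, Prdx3, Prdx5, Srxn1, Glrx, Gclm and Keap1 were no longer among them (edgeR adjusted p between 0.0622 and 0.542). The difference for Nqo1 was 4.63 without Db replicate 1 and 6.36 without replicate 2, and that for Hmox1 was -5.55 without BKS control replicate 1 and -2.98 without replicate 2. With 1 library left out, 11 to 19 of the 37 genes differed, where 18.1% to 35.7% of all genes did. Sod3 had effects of 2.13 in TSC1 KO islets, where it was not called, and 2.51 in Db islets. Their difference did not pass the test (-0.45 ± 1.01 SE, edgeR adjusted p = 0.77). A missed threshold with this standard error does not show that the effects are alike.

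**Figure D5:**
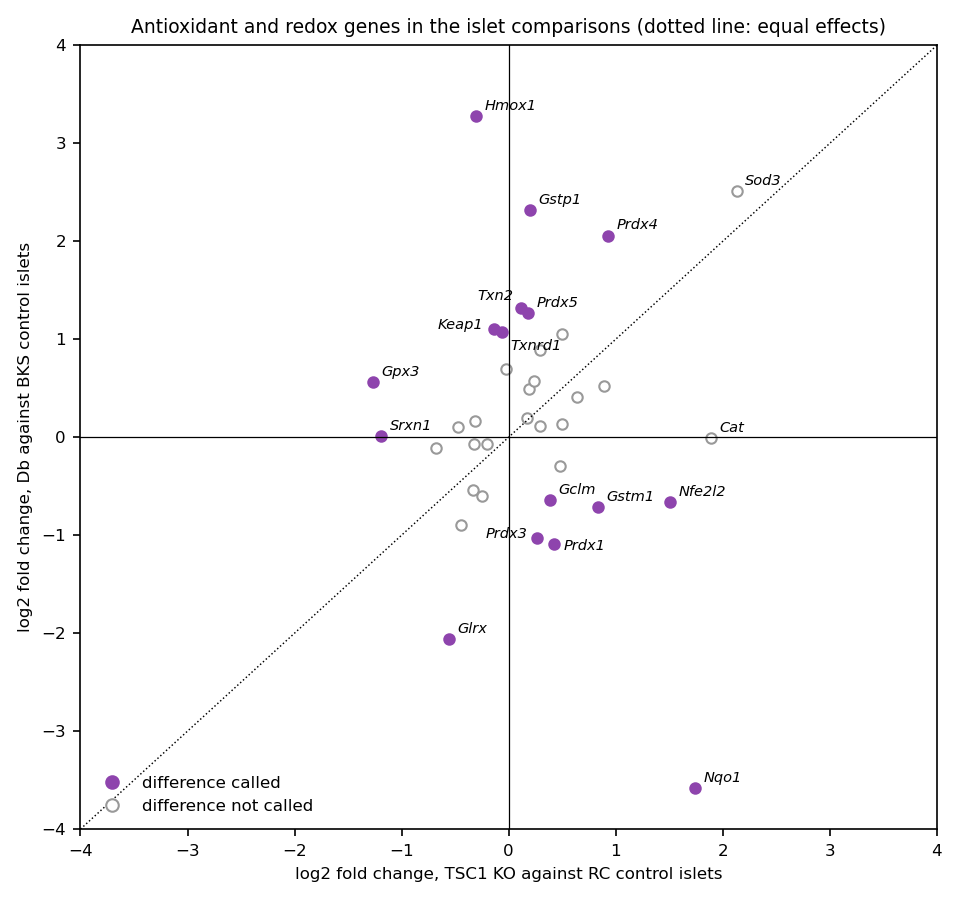
log2 fold change in TSC1 KO against RC control islets (horizontal) and in Db against BKS control islets (vertical) for each of the 37 genes tested in both; filled points are genes whose effects differed in the joint edgeR fit. Nqo1 lies low on the right, Hmox1 and Gstp1 high near the vertical axis, and Gpx8 and Gsta4, too low for a Db test, are not drawn.

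A wider list of 118 genes that supply, use or regulate the same chemistry gives the surroundings of these results. In β-cells 92 were tested, and 4 rose and 3 fell with age, 7.61% against 6.98% of all genes. The rises were Ero1lb, the islet form of the oxidase that forms disulfides in the endoplasmic reticulum (log2 fold change 1.22 ± 0.14 SE), the selenium carrier Selenop (1.13 ± 0.19), Oxr1 (0.90 ± 0.23) and the transporter Abcc5 (0.64 ± 0.18), with edgeR adjusted p-values from 4.56e-05 to 0.0365. The falls were Maff, a small MAF partner of NRF2 (-2.15 ± 0.35), the peroxidasin Pxdn (-1.27 ± 0.34) and the sestrin Sesn2 (-0.88 ± 0.25), with edgeR adjusted p-values from 0.00133 to 0.0469. With the GC trend removed Pxdn, Oxr1 and Sesn2 lost their calls (edgeR adjusted p = 0.0523, 0.0685 and 0.216) and the ferritin genes Fth1 and Ftl1 were called higher (0.87 and 0.88, edgeR adjusted p = 0.0412 and 0.0117).

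In TSC1 KO islets 105 of the wider list were tested, and 8 rose and 10 fell, 17.1% against 18.6% of all genes; none passed the edgeR test without either TSC1 KO library (20 at an unadjusted p under 0.05 in each case). The rises were Pxdn (log2 fold change 1.96 ± 0.22 SE), the methionine sulfoxide reductase Msrb3 (1.33 ± 0.21), xanthine dehydrogenase Xdh (1.68 ± 0.28), the carbonyl reductase Cbr3 (1.97 ± 0.41), Oplah of glutathione turnover (1.34 ± 0.28), the epoxide hydrolase Ephx1 (2.00 ± 0.45), the NADPH oxidase Nox4 (2.68 ± 0.67, from 0.531 to 3.62 CPM) and the transporter Abcc4 (0.93 ± 0.25). Nox4 passed the low-count filter through the knockout libraries, where it is high, so its call is given as a description. The 8 falls with the lowest p were Chac1, which breaks glutathione down (-2.94 ± 0.33), Ero1lb (-3.0 ± 0.38), Gstz1 (-1.77 ± 0.23), the glyoxalase Hagh (-1.61 ± 0.26), Ggt7 (-2.24 ± 0.36), the monoamine oxidase Maob (-1.55 ± 0.28), the folate enzyme Mthfd2 (-1.51 ± 0.32) and Selenok (-0.97 ± 0.22). Their edgeR adjusted p-values ran from 0.0109 to 0.0495. Ero1lb went from 883 ± 246 to 110 ± 20.4 CPM (SD, n = 2 each) in the same libraries in which the β-cell markers above fell.

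In Db islets 98 of the wider list were tested, and 30 rose and 26 fell, 57.1% against 48.2% of all genes. The 8 rises with the lowest p were the NRF2 target Osgin1 (log2 fold change 2.43 ± 0.22 SE), Aldh1l2 (2.09 ± 0.29), Ccs, the copper chaperone of SOD1 (1.6 ± 0.23), Txnip, the thioredoxin inhibitor (1.58 ± 0.23), Sesn2 (1.28 ± 0.21), the pentose phosphate enzymes Tkt (1.37 ± 0.23) and Pgd (1.24 ± 0.22), and Ggt7 (1.16 ± 0.20). The 8 falls with the lowest p were Maob (-1.99 ± 0.21), Ero1lb (-1.89 ± 0.22), the esterase Esd (-1.51 ± 0.25), Cul3, the ubiquitin ligase scaffold that works with KEAP1 (-1.35 ± 0.23), the quinone reductase Nqo2 (-2.10 ± 0.37), Selenot (-1.13 ± 0.21), Rpia (-1.28 ± 0.25) and Oxr1 (-1.27 ± 0.25). Their edgeR adjusted p-values ran from 1.35e-09 to 0.00015. With the GC trend removed Cul3 and Selenot were no longer called (edgeR adjusted p = 0.0735 and 0.254). Txnip went from 95.5 ± 33.2 to 285 ± 51.3 CPM (SD, n = 2 each) and Cul3 from 35.1 ± 2.21 to 13.8 ± 4.24 CPM.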

How the data were processed

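The values are raw counts of reads per gene, whole numbers deposited by the authors in 3 tables with no normalization. The submitters' processing notes name the tools HTSeq 0.7.1, GSNAP, DESeq2 1.16.0 and cutadapt 1.13, and mm9 and NCBIM37 as builds, with no role or strand setting; per the labels' protocols, libraries were made with the SMARTer Stranded kit. Genes with an antisense partner (Prdx2, Prdx5, Txnrd2, Gclm, Gss, G6pdx, Hmox2, Keap1) or with close copies or pseudogenes (Gpx2, Gpx4, Prdx6, Gstm1, Gstp1) are therefore uncertain.

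Symbols, which matched 32620 of the 37310 identifiers (87.4%), lengths and GC content came from GENCODE M21 (GRCm38), using the longest protein-coding transcript of a gene; promoter sequences came from RefSeq (GRCm38.p6). Rows that name no gene were left out. In the β-cell and Db tables gene rows held 24.5% to 44.3% of each column's total. Among the neonatal columns 2 carry number 3 and none number 2; they are called replicates 3a and 3b.

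Each table was fitted with edgeR 4.0.16 in R 4.3.3 (filterByExpr with minimum count 10 and total 15, TMM, robust quasi-likelihood F test, two-sided, threshold 0.05). The difference between the islet effects was tested in 1 fit over 8 libraries. CPM are counts over the TMM-scaled total. Scripts were tested on simulated data. Alternatives were RLE scaling, library size only, insulin and mitochondrial genes left out, no filter, DESeq2 1.42.0, limma-voom (limma 3.58.1), each library left out, the replicate number as a block, and, added after seeing the data, removal of each library's trend with GC content (lowess span 0.3). Replicates differed by a chi-square of 10.03 to 81.32 per degree of freedom, so none looked like a library deposited again.

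The genes, the wider list and the marker lists were chosen with earlier results of these data known. Every called gene is given with its value in each library, as are Nfe2l2, Keap1, Bach1, Nnt, Tsc1 and Lepr; from the wider list up to 8 called genes a direction with the lowest p are named. Marker lists of erythroid, Schwann and neural, and gastrointestinal epithelial genes were also summed: in Db islets erythroid genes were at 18.2 to 29.9 against 4.75 to 8.78 CPM, Schwann and neural genes at 8.34 to 9.18 against 6.16 to 7.39 CPM and gastrointestinal genes at 78.2 to 99.1 against 25.0 to 29.1 CPM; in TSC1 KO islets the 3 sums were 54.2 to 95.5 against 20.9 to 54.5 CPM, 23.7 to 45.0 against 22.5 to 37.0 CPM and 154 to 267 against 92.9 to 99.9 CPM.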

Additional observations from a re-analysis of the deposited data

How the results depend on the processing

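In adult against neonatal β-cells, the count of called genes among the 39 by edgeR went from 0 to 1 (Gpx1) with no low-count filter and with limma-voom. It lay between 0 and 2 with 1 library left out. That of the wider list went from 7 to 11 with no filter and with DESeq2 and lay between 3 and 9 with 1 library left out. Of all genes, 6.80% were called with no filter, 11.4% in DESeq2, 6.19% in limma-voom and 2.68% to 9.05% with 1 library left out. In TSC1 KO islets the count went from 5 to 8 with no filter (Gpx8, Prdx4 and Gstm1 added; 15.1% of all genes called), and with 1 library left out lay between 0 and 12 (0% to 27.2% of all genes), and for the wider list between 0 and 31 (18 with all libraries). In Db islets the wider list had 37 to 58 called genes with 1 library left out, fewest without Db replicate 2, against 56. The share of all genes called in these fits was 30.4% to 43.5%, also lowest without Db replicate 2, against 48.2%. Nnt turned to -0.01 in TSC1 KO islets with library size only, Gclm to 0.04 in Db islets with the GC trend removed, and in β-cells with 1 library left out Nfe2l2 ranged from -0.60 to 0.20 and Bach1 from -0.33 to 0.10, positive without neonatal replicate 3b and 3a respectively; the difference of the islet effects for Bach1 turned to -0.21 with library size only and -0.03 with the GC trend removed. None of these passed the test. Of 555 alternative values for the 42 called results, the difference for Gpx8 among them, 470 kept direction and call, 84 kept direction and lost the call and 1 reversed. The causes were not tested, apart from the removal of samples or genes that a setting itself makes. No alternative with 1 library a group has more than that library's own counts behind it, and the lone library is assumed to vary like the other group.

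Replicate numbers are shared between the islet groups, but deviations of same-numbered libraries correlated at -0.05 in the TSC1 table and -0.04 in the Db table, so the numbers are not read as pairs. With the number as a replicate block 2 of the 39 genes were called in TSC1 KO islets (Nfe2l2 and Nqo1; 11.4% of all genes) and 21 in Db islets (46.0% of all genes), and 12 and 53 of the wider list. No paired analysis was possible because the neonatal columns carry the numbers 1, 3 and 3 for the age comparison. With library size only, the median of all genes moved to -0.19 in β-cells, -0.25 in TSC1 KO and 0.29 in Db islets. Low counts limit Gpx7, Sod3 and Gstp1 in β-cells, with standard errors of 2.17, 2.05 and 1.11 on the log2 scale.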
